A study of Bos taurus with 8 samples.

Results

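Hexokinases, glucose phosphate isomerase, phosphofructokinases and the 6-phosphofructo-2-kinase/fructose-2,6-bisphosphatase (PFKFB) genes were followed in bovine embryonic stem cells (bESCs) grown with and without feeder cells. The 10 genes (HK1, HK2, GPI, PFKL, PFKM, PFKP, PFKFB1, PFKFB2, PFKFB3 and PFKFB4) were taken by symbol from a table of 32640 genes, and all 10 were found. RNA was sequenced from 4 bESC lines of XX karyotype, A, C, D and E, each a separate line and each grown under both conditions in 5% O2, in NBFR-based medium, which the records name NBFRA for both conditions. On MEF, the lines grew over irradiated CF1 mouse embryonic fibroblasts and were collected at passages 15 to 17, and feeder-free they grew on vitronectin (VTN) and were collected at passages 20 to 22. Feeder cells, matrix and passage therefore changed together and cannot be told apart. The methods of the study name Activin A as an addition to the feeder-free medium, which would be a further difference between the conditions.

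Glucose entering a cell is phosphorylated by hexokinase, which keeps it inside, and GPI turns the product, glucose-6-phosphate, into fructose-6-phosphate. Phosphofructokinase then adds another phosphate in the main committed step of glycolysis. The PFKFB enzymes make and remove fructose-2,6-bisphosphate, the strongest activator of phosphofructokinase, and several of these genes, HK2 and PFKFB3 among them, are known targets of the hypoxia-inducible factors.

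Total counts ranged from 44268717 to 54296425 on MEF and from 49671478 to 102351560 feeder-free (exact two-sided permutation test, p = 0.171, smallest possible p 0.0286). The highest total was that of feeder-free line D. Of 9 bESC markers 8 were found, with summed CPM (counts scaled to library size, after TMM) of 5066 to 5746 on MEF and 4346 to 5125 feeder-free. Of the 8, 6 had a higher mean on MEF, 4 of them (SOX2, SALL4, LIN28A and LIN28B) with every feeder-free library below every MEF library, and DPPA4 was at most 0.361 CPM in any library. Summed CPM of 17 fibroblast markers were 621 to 722 on MEF and 378 to 1413 feeder-free, with 9 higher on MEF by mean. COL1A2 (0.680 to 4.65 CPM on MEF, 0 to 0.414 feeder-free) and TWIST2 (0.0453 to 0.661 CPM on MEF, 0 feeder-free) were the 2 without overlap that were lower feeder-free. COL3A1 (0.181 to 1.57 CPM on MEF, 1.44 to 10.5 feeder-free), POSTN and LUM had log2 fold changes of 2.61, 2.26 and 1.16 (adjusted p = 0.0994, 0.442 and 0.174 in edgeR). POSTN was near the floor, at 0 to 0.661 CPM on MEF and 0 to 2.62 feeder-free, highest in line D. COL1A1 was 292 to 383 CPM on MEF and from 115 (line A) to 1033 (line D) feeder-free (log2 fold change 0.52, adjusted p = 0.621 in edgeR). Summed CPM of 5 trophoblast markers were 22.1 to 38.2 on MEF and 41.6 to 114 feeder-free. Most of that sum was KRT7 (19.0 to 36.7 CPM on MEF, 40.9 to 113 feeder-free). GATA3 also had a higher mean feeder-free, with overlap, at 0 to 1.63 CPM on MEF and 0.161 to 3.16 feeder-free. Its log2 fold change was 0.88 (adjusted p = 0.712 in edgeR). GATA2 was 0.770 to 1.49 CPM on MEF and 0.195 to 0.584 feeder-free, TFAP2A had a higher mean on MEF, and CDX2 was at 0 in every library. Summed CPM of 4 hypoblast and endoderm markers were 3.69 to 14.0 on MEF and 3.13 to 5.19 feeder-free, and those of 4 mesoderm markers 0.815 to 6.90 and 6.44 to 10.2. The first sum was mostly FOXA2 (3.32 to 14.0 CPM on MEF, 2.90 to 4.73 feeder-free). The second was mostly EOMES (0.770 to 6.69 and 6.26 to 9.53 CPM, log2 fold change 1.30, adjusted p = 0.211 in edgeR). In each of these 2 lists the other 3 markers were under 1 CPM in every library. None of the markers was called in the unpaired fit of edgeR described below. SALL4 had an adjusted p of 0.0426 in that fit, but its log2 fold change of -0.58 was just under the 1.5-fold threshold. KRT7 had a log2 fold change of 1.49 (adjusted p = 0.0509 in edgeR). The fit with line as a term was not read for the markers. The part of feeder RNA or of other cell types in the results below was not tested, and in bulk RNA fewer cells of a type and less RNA per cell cannot be told apart.

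HK2, PFKL, PFKM and PFKFB3 were downregulated in feeder-free bESCs, by 1.60 to 2.32 fold. These genes cover the phosphorylation of glucose, the phosphofructokinase step and the making of its activator. A gene was called at an adjusted p under 0.05 in edgeR's quasi-likelihood test and a fold change of at least 1.5. Of the 10 genes 9 had enough counts to be tested, 4 were called lower, and 0 were called higher. In all, 1.00 percent of the 15744 genes tested were called lower and 0.724 percent higher, against 44.4 percent of the tested members called lower. The members were chosen with earlier results of these data known, so this contrast is a description only. DESeq2 called 0 members higher, beside 4.41 percent of all genes, and limma-voom 0, beside 79 of 15744 genes. With shares this small, few such calls would be looked for among 9 genes. At an unadjusted p under 0.05 in edgeR 0 members rose, where 10.2 percent of all genes did. The log2 fold change was below 0 for 7 of the 9 and above 0 for PFKP and PFKFB2, with a median of -0.40 beside 0.006 over all genes tested. In 5 members (the 4 called and GPI) every feeder-free library was below every MEF library, as in 8.36 percent of all genes tested. In 6 members (these and HK1) the feeder-free level was lower in all 4 lines, as in 20.7 percent of genes tested.

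When line was added to the fit as a term, which compares each line with itself, the same 4 genes were called lower and again 0 higher. This fit called 4.53 percent of genes lower and 5.52 percent higher. The calls of the unpaired fit rested on having all libraries. Without any 1 of 7 libraries (each MEF library and feeder-free C, D or E), 0 of the 4 remained called, with adjusted p of 0.0703 to 0.125 in edgeR, although 5 or 6 members were still lower at an unadjusted p under 0.05, as were 8.51 to 10.3 percent of all genes in those fits. In those 7 fits at most 6 genes of the whole table were called, and without feeder-free A all 4 members remained called. With line as a term, all 4 were called whichever line was left out.

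**Figure D1:**
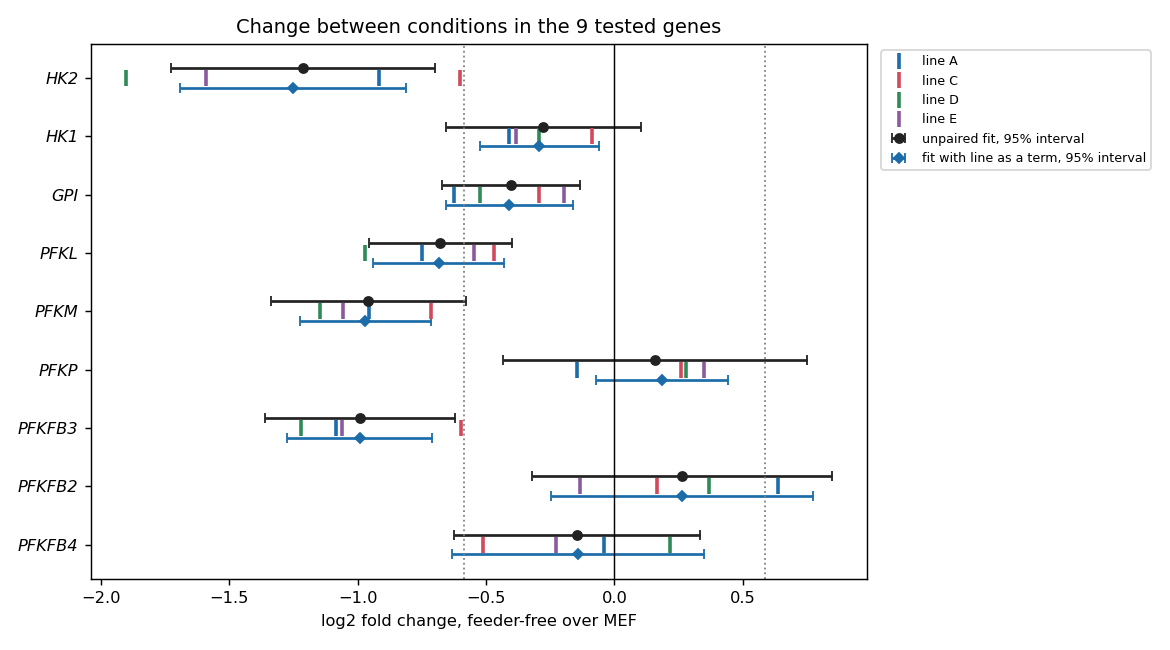
Log2 fold change, feeder-free over MEF (horizontal axis), for the 9 tested genes. Circles are the unpaired fit and diamonds the fit with line as a term, with 95% intervals, ticks are the 4 lines, and dotted lines mark a 1.5-fold change. HK2, PFKL, PFKM and PFKFB3 lie to the left of 0 with their whole intervals in both fits, from -0.68 to -1.21 in the unpaired fit, while PFKP, PFKFB2 and PFKFB4 have intervals across 0 in both.

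HK2, the inducible hexokinase of proliferating cells, which can sit on the mitochondrial outer membrane, showed the largest fall among the members. It lies on chromosome 11 at 9741445 to 9810551 (ARS-UCD2.0). On MEF its level was 381, 347, 405 and 504 CPM in lines A, C, D and E, and feeder-free it was 202, 229, 108 and 167 CPM. The highest feeder-free library, line C, was below the lowest MEF library, also line C. The mean fell from 409 ± 67.6 to 177 ± 52.0 CPM (SD, n = 4 each), a log2 fold change of -1.21 (SE 0.23, 95% interval -1.73 to -0.70, adjusted p = 0.0399 in edgeR). Of all genes tested, 1.78 percent had a lower log2 fold change. The fall was uneven between lines, with log2 ratios of -0.92 in A, -0.60 in C, -1.90 in D and -1.59 in E. With line as a term the log2 fold change was -1.25 (edgeR, adjusted p = 0.00464). Without scaling beyond the library total, the unpaired adjusted p was 0.0507 (edgeR), so HK2 was also close to the limit of the test.

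HK1, the hexokinase found in most tissues, differed less. It lies on chromosome 28 at 25655622 to 25768164. Its level was 445, 587, 518 and 553 CPM on MEF and 335, 553, 422 and 424 CPM feeder-free in lines A, C, D and E. The conditions overlapped, since feeder-free line C lay within the range of the MEF libraries, but each line was lower feeder-free than on MEF. The log2 fold change was -0.28 (SE 0.17, 95% interval -0.66 to 0.10, adjusted p = 0.386 in edgeR), and with line as a term -0.29 (adjusted p = 0.0821), short of the threshold in both fits. The HK1 gene overlaps TACR2 over 8212 bases and HKDC1 over 216 bases, genes with mean levels of at most 14.0 and 0.220 CPM, and strand-specific counting is not stated.

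GPI, which links the hexokinase and phosphofructokinase steps, lies on chromosome 18 at 44784251 to 44812527. It was 532, 511, 523 and 503 CPM on MEF and 345, 416, 363 and 439 CPM feeder-free in lines A, C, D and E. The MEF libraries lay close together and all above the feeder-free ones. Its mean was 517 ± 12.9 CPM on MEF and 391 ± 44.0 feeder-free (SD, n = 4 each), a log2 fold change of -0.40 (SE 0.12, 95% interval -0.67 to -0.13, adjusted p = 0.0985 in edgeR). With line as a term the adjusted p was 0.0341, but the fold change of 1.33 was under the threshold, so GPI was not called in either fit.

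Of the 3 phosphofructokinase subunits, those named for liver and muscle fell and the platelet one did not pass the test. PFKL, the liver-type subunit, lies on chromosome 1 at 144308777 to 144335971. Its level was 631, 582, 624 and 578 CPM on MEF and 375, 420, 318 and 396 CPM feeder-free in lines A, C, D and E. The groups were well apart, with the highest feeder-free library (line C) far below the lowest on MEF (line E). The mean fell from 604 ± 27.7 to 377 ± 43.5 CPM (SD, n = 4 each), a log2 fold change of -0.68 (SE 0.12, 95% interval -0.96 to -0.40, adjusted p = 0.0391 in edgeR). It was the smallest of the 4 called changes and close to the limit of the test, since its adjusted p was 0.0535 without scaling beyond the library total and 0.0558 without a filter on low counts.

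PFKM, the muscle-type subunit, lies on chromosome 5 at 32145678 to 32189038. Its level was 89.6, 104, 90.5 and 121 CPM on MEF and 46.1, 63.6, 40.8 and 58.0 CPM feeder-free in lines A, C, D and E. Again every feeder-free library was below every MEF library. The mean fell from 101 ± 14.7 to 52.1 ± 10.5 CPM, a log2 fold change of -0.96 (SE 0.17, 95% interval -1.34 to -0.58, adjusted p = 0.0353 in edgeR). Its log2 ratio lay between -0.71 in line C and -1.15 in line D, the narrowest range over lines among the 4 genes called.

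PFKP, the platelet-type subunit, lies on chromosome 13 at 45107875 to 45160801 and varied more between lines than between conditions. It was 234, 103, 143 and 173 CPM on MEF and 211, 123, 173 and 221 CPM feeder-free in lines A, C, D and E. Line C was the lowest and line A or E the highest in each condition, a 2.28-fold span on MEF and 1.80-fold feeder-free. The log2 fold change was 0.16 (SE 0.26, 95% interval -0.43 to 0.75, adjusted p = 0.787 in edgeR). With line as a term it was 0.19 (95% interval -0.07 to 0.44, adjusted p = 0.299), and the level was higher feeder-free in 3 of 4 lines. Both intervals exclude the log2 fold changes estimated for PFKL and PFKM, which have intervals of their own. In the unpaired fit the interval of PFKL, which ends at -0.40, overlaps that of PFKP. With line as a term the interval of PFKL ends at -0.43 and does not.

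**Figure D2:**
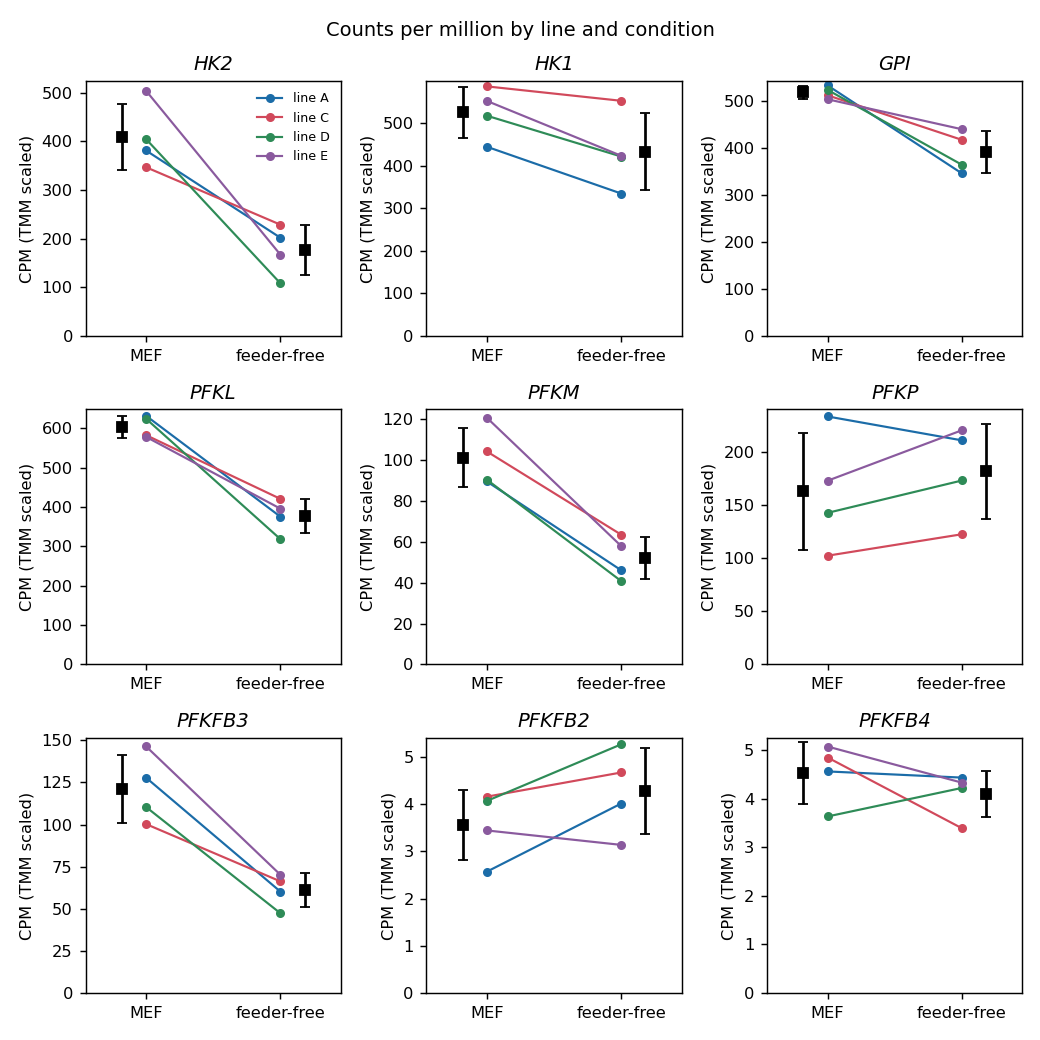
Level in CPM (vertical axis, scaled by TMM, each panel on its own scale from 0) on MEF and feeder-free for the 9 tested genes. Coloured points joined by a line are the 4 bESC lines, and black squares with bars are the mean and SD of the 4 libraries. All 4 lines slope down for HK2, HK1, GPI, PFKL, PFKM and PFKFB3, whereas for PFKP line C is lowest in both conditions, at 103 and 123 CPM.

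PFKFB3, the isozyme with the highest kinase to bisphosphatase activity, lies on chromosome 13 at 17098741 to 17372190. Its level was 128, 100.3, 110.4 and 146 CPM on MEF and 60.2, 66.3, 47.3 and 70.2 CPM feeder-free in lines A, C, D and E. Every feeder-free library was below every MEF library, and line C had the smallest difference. The mean fell from 121 ± 20.3 to 61.0 ± 9.996 CPM (SD, n = 4 each), a log2 fold change of -0.99 (SE 0.16, 95% interval -1.36 to -0.62, adjusted p = 0.0331 in edgeR), the lowest adjusted p among the members in the unpaired fit. PFKFB3 overlaps PRKCQ over 1357 bases, but PRKCQ was at 13.4 CPM on MEF and 12.8 CPM feeder-free. A long noncoding RNA gene that overlaps it over 920 bases had 0 CPM in both conditions.

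The other PFKFB genes had few counts. PFKFB2, known as the heart isozyme, lies on chromosome 16 at 4871974 to 4900744 and had 107 to 539 counts per library. It was 2.57, 4.16, 4.07 and 3.44 CPM on MEF and 4.01, 4.67, 5.27 and 3.14 CPM feeder-free in lines A, C, D and E, so the conditions overlapped. Its log2 fold change was 0.26 (SE 0.26, 95% interval -0.32 to 0.85, adjusted p = 0.613 in edgeR). PFKFB4, known as the testis isozyme and as a hypoxia-responsive gene, lies on chromosome 22 at 51321978 to 51363427 and had 176 to 432 counts. It was 4.56, 4.85, 3.63 and 5.07 CPM on MEF and 4.43, 3.39, 4.22 and 4.33 CPM feeder-free, again with overlap, and its log2 fold change was -0.15 (SE 0.21, 95% interval -0.62 to 0.33, adjusted p = 0.754 in edgeR). A 2-fold fall, such as that of PFKFB3, lies outside both of these intervals. PFKFB1, the liver and muscle isozyme, lies on chromosome X at 92370693 to 92471526. It had 1 count over the 4 MEF libraries and 4 counts over the feeder-free ones, with at most 2 in a library, and was too low to be tested or given a fold change.

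Ratios of counts within a library were used to ask whether isozymes of 1 family changed unequally, since such a ratio does not depend on the scaling between libraries. HK2 relative to HK1 had a log2 ratio of -0.37 ± 0.28 on MEF and -1.33 ± 0.50 feeder-free (SD, n = 4 each), and it was lower in all 4 lines, by 0.51 in A and C, 1.61 in D and 1.21 in E. The difference of -0.96 (SE 0.29) had an exact two-sided permutation p of 0.0571 (adjusted over the 4 ratios, 0.114). PFKP relative to PFKL was -1.95 ± 0.47 on MEF and -1.08 ± 0.46 feeder-free, higher in all 4 lines, with an exact permutation p of 0.0857 (adjusted 0.114). PFKM relative to PFKL differed least, from -2.58 ± 0.27 to -2.87 ± 0.14 (exact permutation p = 0.171, adjusted 0.171). PFKFB3 relative to PFKFB2 was 5.08 ± 0.50 on MEF and 3.83 ± 0.53 feeder-free, lower in all 4 lines, and its exact permutation p of 0.0286 was the smallest that 4 against 4 libraries can give (adjusted 0.114). In this test, which ignores line, 0 of the 4 ratios passed after adjustment and 1 before it. The direction was shared by all 4 lines in each ratio, but an exact paired test over 4 lines cannot give a p under 0.125. From the spread of the 4 within-line differences, taken as normal and not adjusted over the 4 ratios, the 95% interval of the mean difference was -1.82 to -0.10 for HK2 to HK1, -0.53 to -0.04 for PFKM to PFKL, 0.42 to 1.32 for PFKP to PFKL and -2.002 to -0.494 for PFKFB3 to PFKFB2. Each of these intervals, which were added after the data were seen, lies on 1 side of 0.

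**Figure D3:**
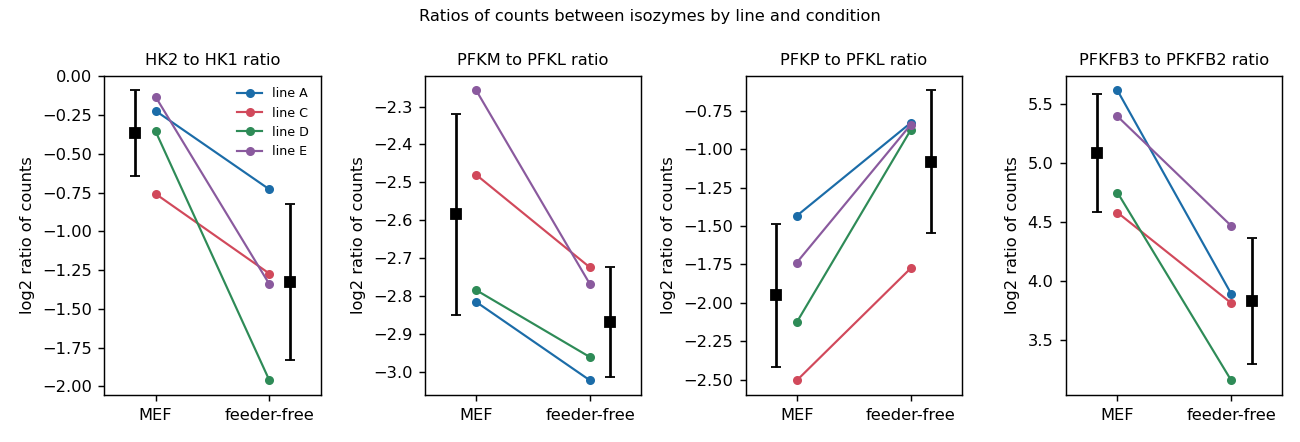
Log2 ratio of the counts of each isozyme pair (vertical axis) on MEF and feeder-free. Coloured points joined by a line are the 4 bESC lines, and black squares with bars are the mean and SD (n = 4). The 4 lines slope the same way in each panel, and the PFKFB3 to PFKFB2 ratio is the one whose conditions do not overlap, with means of 5.08 and 3.83.

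The falls differed in size between lines, and with 1 library per line and condition a difference between lines and one between single libraries cannot be told apart. Line D showed the largest fall of all 4 called genes and line C the smallest. Line D feeder-free was also the library with the highest total, and with that library thinned to the median total of the other feeder-free libraries the same 4 genes were called. Of the 9 tested members, 8 were lower feeder-free in lines A and E, 7 in C and 6 in D. The median log2 ratio of the 9 was -0.62 in A, -0.47 in C, -0.52 in D and -0.38 in E.

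Genes outside the family with the most similar pattern were sought for 1 enzyme of each step, by Pearson correlation of log2 CPM over the 8 libraries. These r values are a description only: the libraries are 4 lines in 2 conditions, so a difference between conditions alone gives a high r. For HK2 the closest were ZNF652, ARRDC4, DOT1L, GZF1 and KIAA0586 (r from 0.984 to 0.980). For PFKL they were R3HDM2, GPBP1L1, BCNT2, CUL7 and SRC (0.983 to 0.979), and for PFKFB3 they included WDTC1, DENND4B, TEF and SRC (0.989 to 0.986). SRC, a tyrosine kinase, appeared for both PFKL and PFKFB3 and was itself called lower, from 83.8 to 48.3 CPM (log2 fold change -0.79, adjusted p = 0.0331 in edgeR).

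The rest of the pathway was read from lists of 68 genes, of which 58 were tested. In the unpaired fit 1 was called lower and 0 higher, and with line as a term 9 were called lower and 2 higher. At an unadjusted p under 0.05 there were 17 lower and 4 higher, beside 11.4 and 10.2 percent of all genes. DESeq2 called 7 lower and 2 higher, beside 3.28 and 4.41 percent of all genes. The median log2 fold change of the 58 was -0.14, with 35 below 0, and 14 had every feeder-free library below every MEF library, as did 8.36 percent of all genes.

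Upstream of hexokinase, 6 of 7 glucose transporter genes were tested and their median was -0.52. None passed in the unpaired fit, and SLC2A1 and SLC2A3, the transporters known for basal and high-affinity uptake, were called lower with line as a term. SLC2A1 was 466 ± 107 CPM on MEF and 246 ± 48.0 feeder-free (log2 fold change -0.92, adjusted p = 0.0517 unpaired and 0.00470 with line, edgeR). SLC2A3, which had the most counts of the transporters, was 7361 ± 1541 and 3223 ± 1457 CPM (log2 fold change -1.19, adjusted p = 0.0909 unpaired and 0.0138 with line, edgeR). Of the 5 genes for other glucose-phosphorylating enzymes and the glucokinase regulator, ADPGK alone had enough counts, and its log2 fold change was 0.23 (adjusted p = 0.492 in edgeR). The 3 tested of 6 phosphatases that oppose these steps had a median of 0.12, and 0 were called in either fit. Of these G6PC3, a glucose-6-phosphatase, had the most counts, at 76.8 and 79.7 CPM.

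Downstream, 13 of 14 later glycolysis genes were tested, with a median of -0.38 and 11 below 0. ENO1, which encodes enolase, was the only one called in the unpaired fit, from 8692 ± 865 CPM on MEF to 5110 ± 470 feeder-free (log2 fold change -0.77, adjusted p = 0.0399 in edgeR). PGK1, the first ATP-forming enzyme of the pathway, was called with line as a term, at a log2 fold change of -0.64 (edgeR, adjusted p = 0.0118). ALDOA, TPI1, GAPDH, ENO2 and PKM were lower in all 4 lines, with adjusted p of 0.0107 to 0.0347 with line as a term (edgeR). Like GPI, they were under the 1.5-fold threshold and so were not called.

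Branches from the hexose phosphates had medians nearer to 0. All 7 pentose phosphate genes were tested, with a median of 0.16 and 0 called in either fit, and TKT, the transketolase with the most counts, was 603 and 556 CPM. The 5 hexosamine genes had a median of 0.03. With line as a term PGM3 was called higher, from 32.6 ± 7.37 to 62.8 ± 17.8 CPM (log2 fold change 0.94, edgeR, adjusted p = 0.00520), and GFPT1, the entry enzyme, was 213 and 164 CPM and was not called. The 3 mannose genes had a median of -0.16, where MPI was called lower with line as a term (-0.67, edgeR, adjusted p = 0.0162) and PMM2 was 41.6 and 56.7 CPM. The 9 glycogen genes had a median of -0.03, and GBE1, the branching enzyme (-0.69), and PYGL, a glycogen phosphorylase (-0.70), were called lower with line as a term (edgeR, adjusted p = 0.0277 and 0.0139).

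Among 12 regulators tied to hypoxia-inducible factors, MYC and AMP-activated kinase, 11 were tested, with a median of -0.27 and 0 called in the unpaired fit. HIF1A, the oxygen-regulated subunit, which is controlled mainly at the protein level, was 290 ± 19.3 CPM on MEF and 238 ± 19.2 feeder-free (log2 fold change -0.29, adjusted p = 0.178 in edgeR). With line as a term EGLN1, a prolyl hydroxylase, and VHL, the ubiquitin ligase subunit that recognises hydroxylated HIF, were called lower (log2 fold changes -1.18 and -0.74, adjusted p = 0.00266 and 0.0133 in edgeR). MYC was called higher in that fit (0.86, adjusted p = 0.0455 in edgeR).

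**Figure D4:**
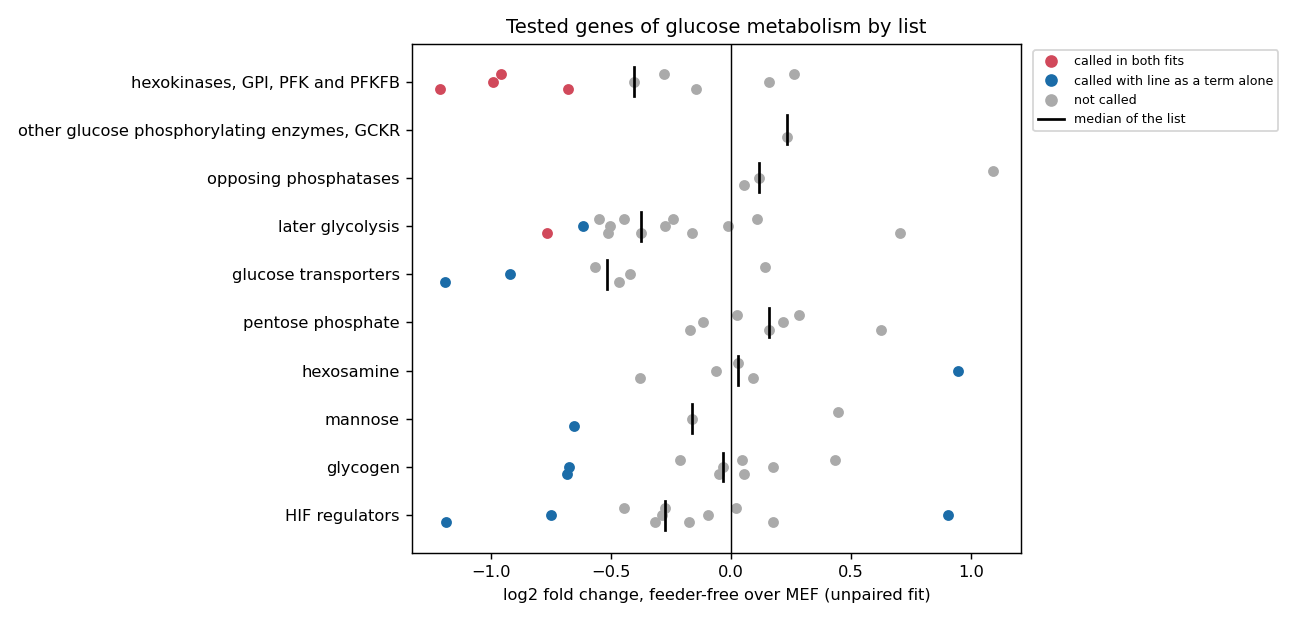
Log2 fold change of the unpaired fit (horizontal axis, feeder-free over MEF) for each tested gene of the 10 members (top row) and of the 9 other lists. Red points were called in the unpaired fit, blue points with line as a term alone, grey points in neither, and black bars are list medians. The members have 4 red points and a median of -0.40, and the other lists together have 1 red point, ENO1. The medians of later glycolysis (-0.38) and of the glucose transporters (-0.52) are similar to that of the members.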

How the data were processed

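RNA sequencing of 4 bESC lines in 5% O2, on MEF and feeder-free, was used (8 libraries, 4 per condition). The authors deposited raw counts per gene: Trimmomatic trimmed the reads, STAR placed them on the bovine assembly ARS-UCD2.0, optical duplicates and poor alignments were dropped, and featureCounts (Subread 1.6.2) counted the rest. Strand is not given in the sources used here. The methods also describe removing reads that a pure MEF sample shared with the bovine genome, as a normalization for the cells grown on MEF. They do not say whether the deposited counts are from before or after this step. Its effect on the fold changes was not tested.

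Of 32640 genes, 3 had no values, and 0 sample columns were left unused. Counts were tested with edgeR 4.0.16 in R 4.3.3 (glmQLFit, glmQLFTest) after filterByExpr and TMM, with condition as the only term. Adjustment followed Benjamini-Hochberg across all 15744 tested genes, and calls needed adjusted p under 0.05 with at least a 1.5-fold change. CPM are counts scaled by the library total after TMM. Log2 CPM and ratios used a prior count of 2. Coordinates are those of RefSeq for ARS-UCD2.0. The fits were tested on simulated counts.

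The line letter names the same cells in both conditions: deviations from the condition mean correlated at 0.582 (A), 0.557 (C), 0.664 (D) and 0.421 (E) within lines and at -0.523 to 0.249 between lines. A fit with line as a term was therefore made. Each line is an independent derivation, so the lines are the replicates. Records give 1 sequencing batch, and name Trizol for RNA extraction where the methods name RNeasy.

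The members, the lists and the tests were chosen with earlier results of these data known. Named genes were all members, every list gene called in either fit, the list gene with the highest mean CPM, and the 5 genes most correlated with HK2, PFKL and PFKFB3, of which 1 is not reported here. Cell type markers were named after their values were seen. The alternatives tried were size factors by RLE, no scaling, other low-count filters, DESeq2 1.42.0, limma-voom (limma 3.58.1), the likelihood ratio test of edgeR, a fit with line, other fold thresholds, a thinned library and each library or line left out. Transcript lengths, promoters and proteins were not used here, so levels were not compared between genes.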

Additional observations from a re-analysis of the deposited data

Results flagged for a closer look

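In 28 groups of 4 libraries (levels, ratios and totals), 2 had a library set apart in its condition, and chance at 1 in 20 gives about 1.4. The PFKP to PFKL log2 ratio of feeder-free line C was the lowest of its condition, at -1.78 where the others were -0.88 to -0.83. The total count of feeder-free line D was the highest, at 102351560 where the others were 49671478 to 51320214.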

How the results depend on the processing

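Of the 10 members, 4 were called lower, and 0 higher under every alternative. The count of 4 was kept with RLE size factors, at least 10 counts in every library, the likelihood ratio test, DESeq2, limma-voom, a thinned deepest library, no fold threshold, and the replicate block, also with any line left out. It was 3 without a filter on low counts (PFKL lost), 2 without scaling (PFKL and HK2 lost), 1 at a fold change of at least 2 (HK2 remained), and 0 to 4 with 1 library left out. Over 21 alternatives to the fit, 84 of 84 log2 fold changes of the 4 called genes kept their sign and 53 kept the call. PFKP, at 0.16, was -0.0099 without MEF line C and 0.383 without MEF line A. Over all genes, 158 were called lower and 114 higher. These counts were 91 lower without scaling, 97 and 73 without a filter, 389 and 448 by the likelihood ratio test, 516 and 695 by DESeq2, 713 and 869 with the replicate block (366 to 733 and 376 to 918 with a line left out), and 48 and 70 at a fold change of at least 2. At least 10 counts in every library gave 199 higher, and leaving out 1 library 0 to 231 lower and 0 to 259 higher. The cause was not tested. The block changed no other call of a member. Of the isozyme ratios, 0 passed after adjustment with a prior count of 0.5. Leaving out 1 library (smallest exact p 0.0571) and pairing by an exact test (0.125) could not have passed. With pairing by line (replicate block), the 95% interval of the mean within-line difference excluded 0 for HK2 to HK1 (-0.96), PFKM to PFKL (-0.29), PFKP to PFKL (0.87) and PFKFB3 to PFKFB2 (-1.25). This alternative was chosen after seeing the data. Levels per length were not run. PFKFB1 had too few counts to be tested.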
